A study of Homo sapiens with 30 samples.

Results

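Definitive ectoderm (DE) is the day 1 population of a stepwise neural differentiation of H1 human embryonic stem cells, and the regions described here had an ATAC-seq peak in DE and in no other population of the series. They were chosen by the peak lists themselves. Peaks of 10 lists on chromosomes 1 to 22 were merged where they overlapped by 1 bp or more, and a merged region was kept when the DE list had a peak there and the other 9 lists had none. This selected 26012 of 476170 merged regions, or 5.46%, and the same rule selected 4.6% for the hPSC list and 10.6% for the pNE_H list. The number of DE-only regions follows from the rule and is a description, with no test.

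The series profiled wild-type H1 cells by OmniATAC-seq, which uses the Tn5 transposase to tag open DNA, with 50000 cells per library and 3 libraries in each of 10 groups. Pluripotent cells (hPSC) were taken on day 0. DE cells were taken on day 1, after 24 hours in CDM2 medium with A8301 at 1 µM, Trametinib at 250 nM, C59 at 1 µM and LDN193189 at 100 nM, which block activin-NODAL-TGFB receptors, MEK, WNT secretion and BMP receptors. DE cells then gave anterior (aNE) and posterior (pNE) neural ectoderm on day 2. The aNE medium held A8301, LDN193189, C59 and the ROCK inhibitor Thiazovivin, and the pNE medium held A8301, LDN193189, TTNPB (a retinoic acid receptor agonist), FGF2, XAV939 (a tankyrase inhibitor) and Thiazovivin. From each, telencephalon, midbrain and hindbrain media gave the day 4 populations aNE_T, aNE_M and aNE_H and pNE_T, pNE_M and pNE_H. All 9 differentiated groups had been in the DE medium, and hPSC had not. The labels used here give the day 4 media only in part. All cells came from 1 line, and 1 list was used for each group, with peak positions but no score. No value below therefore has a replicate error, read depth is unknown, and a difference between lists compares those lists.

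Ectoderm is the germ layer that gives rise to the nervous system and the epidermis. In pluripotent cells NODAL and BMP signals direct exit toward mesendoderm and surface ectoderm, and blocking both is a standard way to obtain neural ectoderm in culture. Accessible DNA marks promoters, which lie at gene starts and are often open in many cell types, and distal elements such as enhancers, which more often differ between cell types.

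Gene starts are where a change of accessibility can be tied to a gene with least doubt. The sequences before 5 starts are therefore shown, each overlapped in part or in full by a DE-only peak. DAND5, LINC01939 and LOC105370790 are those of the 6 widest such peaks whose gene has a single start window in the table used. The ACVR1B and OTX2 starts were added after their values were seen, because both genes belong to the pathways that the DE medium acts on or leads to. Each line gives the 250 bases before the start, 5′ to 3′ along the gene, from RefSeq on GRCh38.p14. Capitals mark the bases inside the DE-only peak.
DAND5 (chr19:12969326-12969575, plus strand): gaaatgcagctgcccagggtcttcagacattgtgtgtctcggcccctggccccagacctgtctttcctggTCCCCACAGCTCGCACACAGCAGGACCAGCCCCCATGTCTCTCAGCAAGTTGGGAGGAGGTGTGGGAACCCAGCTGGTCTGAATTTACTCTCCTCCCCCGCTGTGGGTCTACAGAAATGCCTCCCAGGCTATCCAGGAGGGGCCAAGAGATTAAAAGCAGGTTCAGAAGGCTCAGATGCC
LINC01939 (chr2:905452-905701, minus strand): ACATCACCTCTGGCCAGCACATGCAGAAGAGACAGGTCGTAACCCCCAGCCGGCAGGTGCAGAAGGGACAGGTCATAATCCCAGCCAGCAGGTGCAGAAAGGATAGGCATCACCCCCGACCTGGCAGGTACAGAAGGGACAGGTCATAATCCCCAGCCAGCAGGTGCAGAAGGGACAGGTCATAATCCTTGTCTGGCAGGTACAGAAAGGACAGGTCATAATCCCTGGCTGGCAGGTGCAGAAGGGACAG
LOC105370790 (chr15:41486370-41486619, minus strand): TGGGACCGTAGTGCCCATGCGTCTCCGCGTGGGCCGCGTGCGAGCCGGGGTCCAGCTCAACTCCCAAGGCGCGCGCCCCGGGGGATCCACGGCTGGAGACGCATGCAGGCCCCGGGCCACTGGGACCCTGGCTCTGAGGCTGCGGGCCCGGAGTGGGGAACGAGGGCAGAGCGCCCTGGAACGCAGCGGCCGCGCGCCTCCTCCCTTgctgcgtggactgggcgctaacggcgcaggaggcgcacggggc
ACVR1B (chr12:51953134-51953383, plus strand): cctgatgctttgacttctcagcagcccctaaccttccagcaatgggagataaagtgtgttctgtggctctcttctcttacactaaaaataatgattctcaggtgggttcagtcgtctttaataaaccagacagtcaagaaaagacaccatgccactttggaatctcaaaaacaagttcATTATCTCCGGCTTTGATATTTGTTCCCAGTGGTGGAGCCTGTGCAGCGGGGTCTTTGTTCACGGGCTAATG
OTX2 (chr14:56810480-56810729, minus strand): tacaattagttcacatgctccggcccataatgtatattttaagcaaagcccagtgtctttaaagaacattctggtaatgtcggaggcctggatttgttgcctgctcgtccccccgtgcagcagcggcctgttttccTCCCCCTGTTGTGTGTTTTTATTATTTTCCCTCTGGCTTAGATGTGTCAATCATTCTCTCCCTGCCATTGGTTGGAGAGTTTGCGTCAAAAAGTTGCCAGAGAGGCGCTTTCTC
The DE-only peak held 180 of the 250 bases before the DAND5 start, all 250 before LINC01939, 207 before LOC105370790, 72 before ACVR1B and 114 before OTX2. The LOC105370790 peak did not reach the start itself. The LINC01939 stretch is a visible tandem repeat. The printed LINC01939 strand held CAGGTG 4 times and TAATCC 4 times, and reads from such repeats may be placed with less certainty. LOC105370790 was the GC-rich member of the 5, with 75.3% G and C over the window of 300 bases that runs to 50 bases after the start, against 58.7% for DAND5.

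DE had the second longest list, with 238994 peaks on chromosomes 1 to 22, which fell in 223273 merged regions. Of these regions 11.7% were open in DE alone. The share was 11.3% for hPSC and 17.3% for pNE_H, the longest list. It was 8.33% for pNE_T, 8.80% for pNE_M and 4.69% for aNE_H, and lay between 1.60% in aNE and 3.39% in aNE_T for the others. DE therefore stood beside hPSC and far above both day 2 populations made from it. The narrowest peak also differed between lists. It was 109 bp in pNE_H, 112 bp in DE and 113 bp in hPSC, and between 122 and 126 bp in aNE, pNE and the 3 lists made from aNE. The 5 lists with a narrowest peak of 115 bp or less were those with the 5 largest single-list shares, and the part of this width limit in the number of DE-only regions was not tested. With every peak under 126 bp left out of every list, an alternative chosen after seeing the data, DE kept 21480 single-list regions, 10.7% of its own, and hPSC had 10.7% as well. The share was then 16.3% for pNE_H, 8.30% for pNE_M and 8.22% for pNE_T, and aNE_H was next with 5.73%. With all lists reduced to their widest 162041 peaks, the length of the shortest list, DE had 12341 single-list regions or 8.03%, below hPSC with 12.4%, pNE_T with 10.4%, pNE_M with 10.3% and pNE_H with 8.82%.

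**Figure D1:**
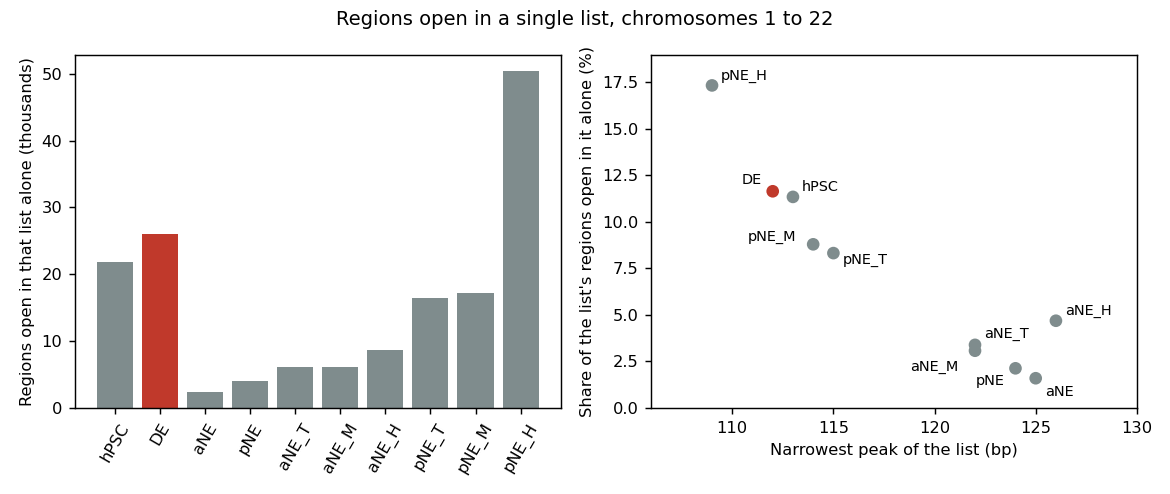
Left, number of regions open in a single list for each of the 10 lists, with DE in red; right, the share of each list's regions that were open in it alone (percent) against the width of its narrowest peak (bp). The 26012 DE-only regions were outnumbered only by the 50360 of pNE_H, and the 5 lists with narrowest peaks of 109 to 115 bp had the 5 largest shares.

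Most DE regions were shared, and those shared with exactly 1 other list were shared mostly with hPSC. All 10 lists were open at 78808 of the DE regions, or 35.3%, and DE and exactly 1 other list at 22741, or 10.2%. That other list was hPSC at 13138 regions, which were 6.81% of all hPSC regions. It was pNE_H at 2343, aNE at 2082 and aNE_T at 1661, and each of the remaining 5 lists gave between 609 and 912. Had hPSC not been counted, the number of DE-only regions would have been 39150, and no other list moved it above 28355 when not counted.

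The rule draws a line through close cases. Of the 26012 DE-only regions, 258 lay 20 bp or less from a peak of another list and 1156 lay 100 bp or less away. Just inside the shared class, 259 of 22513 regions with 1 DE peak and 1 peak of another list overlapped by 20 bp or less, and 7 by a single base. The median distance from a DE-only region to the nearest peak of any other list was 1289 bp, and 43.6% of the regions had one within 1 kb. hPSC-only regions had a median of 1211 bp and pNE_H-only regions 1461 bp. A distance over 10 kb was found for 869 DE-only regions, or 3.34%. By list, the median distance was shortest to pNE_H peaks with 2532 bp, then to the shared peaks of DE itself with 3122 bp and to hPSC peaks with 3241 bp. It was longest to aNE peaks with 4705 bp, and aNE is the shortest list. The median was 4150 bp to the 209967 pNE_M peaks and 3739 bp to the 191380 aNE_T peaks. The part of list length in these distances was not tested.

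DE-only regions were narrow. Each held 1 DE peak, from 112 to 1556 bp wide, with quartiles of 122, 157 and 213 bp, and together they covered 4.79 Mb. The DE peaks in shared regions had a median of 290 bp and covered 85.9 Mb. The share of DE peaks that were open in DE alone fell with each step in width, from 30.4% of peaks in the narrowest of the classes plotted, through 11.5% of those over 200 and up to 250 bp, to 34 of 31429 peaks over 700 bp, or 0.108%. The lists hold no score with which to tell a weak peak from a narrow one. Single-list regions of other populations were as narrow, with medians of 154 bp in hPSC and 165 bp in pNE_H. When only the widest 50% of DE peaks were kept and the other lists left whole, 3531 DE-only regions remained.

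**Figure D2:**
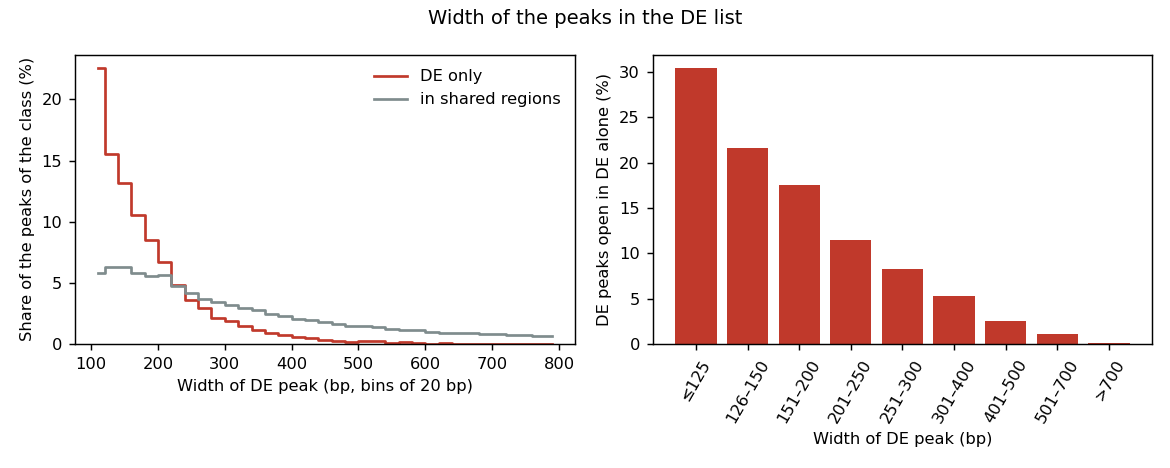
Left, distribution of DE peak widths in bins of 20 bp up to 800 bp, as the share (percent) of the 26012 DE-only peaks (red) and of the 212982 DE peaks in shared regions (grey); right, the share of DE peaks open in DE alone (percent) by width class (bp). The DE-only peaks crowd at the narrow end, and the share falls from 30.4% to 0.108% across the classes.

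Few DE-only regions lay at gene ends. A gene end, start or finish, lay within 1 kb of 2053 of them, or 7.89% (95% Wilson interval 7.57 to 8.23), beside 10.0% of hPSC-only regions, 6.70% of pNE_H-only regions and 11.2% of all merged regions. Among DE regions shared with other lists, the share was 8.75% to 9.74% in each class open in 2 to 9 lists, close to that of DE-only regions, and 27.1% in the class open in all 10. The intervals cover the counting of regions only. By width, the share of DE-only regions near a gene end ran from 7.49% of those of 112 to 121 bp to 8.30% of those of 213 bp or more. Regions open in all lists were far wider, with a median of 871 bp, and with windows of 500 bp at peak midpoints the DE-only share was 10.41%. The part of width in the difference between classes was not tested. The contrast was sharper at starts. The midpoint lay within 1 kb of a start for 2.10% of DE-only regions and 18.4% of regions open in all lists. It did so for 3.04% of hPSC-only and 1.97% of pNE_H-only regions. Per 250 bp of distance, the bins on either side of the start held 67 and 58 DE-only regions, within the range of 41 to 83 that the bins out to 5 kb held. DE-only regions showed no summit at starts, whereas regions open in all lists did. Inside protein-coding genes lay 55.6% of DE-only regions (55.0 to 56.2), more than the 53.2% of hPSC-only, 45.2% of pNE_H-only and 50.0% of all merged regions. The nearest gene was protein-coding for 40.0% of DE-only regions and for 36.0% of all regions.

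**Figure D3:**
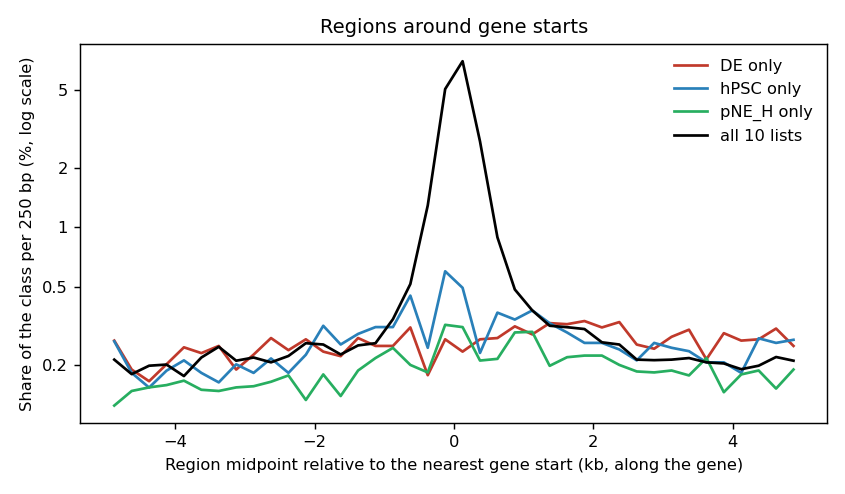
Share of each class of regions (percent per 250 bp bin, log scale) by the distance of the region midpoint from the nearest gene start, along the gene, in kb; chromosome 8 is left out. Regions open in all 10 lists rise steeply at the start, while the DE-only line stays level across it. The hPSC-only and pNE_H-only lines rise there by less.

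DE-only regions were unevenly spread over chromosomes. They made up 4.11% of merged regions on chromosome 13 (3.81 to 4.43) and 4.16% on chromosome 4, and rose to 7.14% on chromosome 17 and 8.18% on chromosome 22 (7.60 to 8.81). Chromosome 13 had 338 coding genes to 15780 merged regions, and chromosome 22 had 451 to 7893, while chromosome 19, with most coding genes for its regions (1451 to 9560), had a DE-only share of 6.84%. The hPSC-only share ran the same way over a smaller range, from 4.02% to 6.33%. The pNE_H-only share ran the other way, with 13.7% on chromosome 13 and 6.68% on chromosome 22, and its 50360 regions enter the denominator of the DE-only share. As a share of DE regions alone, the range was 10.3% on chromosome 13 to 14.0% on chromosome 22, and chromosome 19 was second lowest with 10.7%. The median number of coding genes within 500 kb was 7 for DE-only and hPSC-only regions and 4 for pNE_H-only regions.

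**Figure D4:**
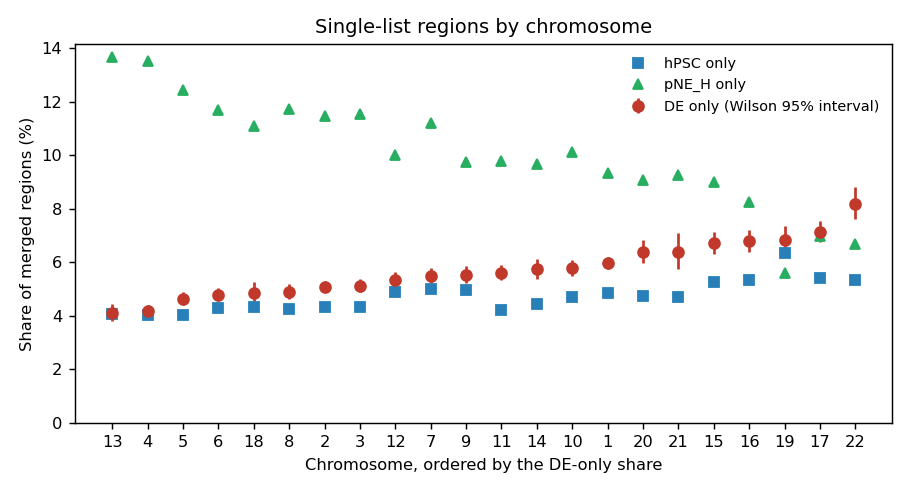
Share of merged regions (percent) that were open in DE alone (red circles, bars are 95% Wilson intervals over regions), in hPSC alone (blue squares) or in pNE_H alone (green triangles) on chromosomes 1 to 22, ordered by the DE-only share. The DE-only share runs from 4.11% on chromosome 13 to 8.18% on chromosome 22, and the pNE_H-only share falls along the same order.

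The widest DE-only region spanned 1556 bp at chr2:232409644-232411199 and overlapped an end of ALPG, which encodes a germ cell alkaline phosphatase. ALPG has near-identical neighbours, so its reads may be shared with them. Its nearest peak in another list was 1980 bp away, in aNE_M. Away from gene ends, the widest was a region of 1081 bp at chr3:9656557-9657637 inside MTMR14, a phosphoinositide phosphatase gene, 6607 bp from the nearest peak of another list, which was an hPSC peak. A region of 1055 bp at chr7:68634811-68635865 lay in no gene and 4055 bp from a pNE_T peak. Regions of 898 bp lay inside PDE4D, a cyclic AMP phosphodiesterase gene (chr5:59167612-59168509), and inside RNASEH2B, a subunit gene of ribonuclease H2 (chr13:50930121-50931018). Another of 863 bp lay inside GABRA5, a GABA receptor subunit gene (chr15:26937249-26938111). The other 5 of the 10 widest distal regions were 791 to 825 bp wide, with 3 of them inside FNDC3A, EXOC6B and DCTD. The EXOC6B region was 186 bp from a peak of pNE_M and the FNDC3A region 8873 bp from a peak of pNE, so wide members were not all isolated ones.

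At gene starts, 127 of 33725 windows of 300 bases (250 before and 50 after a start) overlapped a DE-only region, or 0.377%. hPSC-only regions overlapped 233 windows and pNE_H-only regions 301, while regions open in all lists overlapped 19347. The 127 windows held 123 DE-only regions with a median width of 161 bp. They belonged to 58 starts of long non-coding RNAs and 69 of coding genes, and the start itself lay inside the DE peak in 67. Another list also had a separate peak in 7 of the windows. Their median GC content was 53.0% and their median CpG count 4, beside 57.3% and 8 at hPSC-only starts, 47.0% and 4 at pNE_H-only starts, 65.7% and 26 at starts open in all lists, and 58.7% and 14 over every window.

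The coding starts belonged to 68 genes, of which a few are named here after their values were seen. DAND5, a secreted antagonist of NODAL and BMP ligands, had a region of 466 bp across its only start window, and the nearest peak of another list was 3316 bp away. SFTPB, encoding a lung surfactant protein, had the widest with 502 bp, 290 bp from a peak of another list. Its second start window was open in 6 lists, DE included. NPHS1, encoding the kidney slit diaphragm protein nephrin, had a region of 367 bp across its start. IL20, MUC2, CD3D, C1QA and IL12B, genes of immune cells and of mucus, also had one overlapping a start window. MUC2 had a pNE peak in the same window. The overlap was 30 bases at CD3D and 16 at IL12B, and neither start lay inside the peak. The other IL20 start window was open in 9 lists, DE included. For 41 of the 68 genes the table held no start window apart from those that DE-only regions overlapped. The other 27 genes had further start windows, and 18 of them had one that was open in all 10 lists. GLI2, a transcription factor of Hedgehog signalling, RXRA, a retinoid receptor, CRB2, an apical polarity protein, and KAT14, an acetyltransferase subunit, were among these 18. Of those named, CRB2 had the start itself inside the DE-only peak, and GLI2, RXRA and KAT14 did not. At these 18 genes the DE-only peak thus overlapped the window of a start other than the broadly open one.

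ACVR1B and OTX2 show this arrangement in genes tied to the treatment. ACVR1B encodes the activin and NODAL receptor kinase ALK4, a target of A8301. Its upstream start, at position 51951699 of chromosome 12, lay under a peak in all 10 lists. The start 3′ of it, at position 51953384, lay inside a DE-only region of 171 bp (chr12:51953312-51953482), and the nearest peak of another list was 431 bp away. OTX2 encodes a homeobox factor of the epiblast and of the anterior neural plate. Its outer start, at position 56810479 of chromosome 14 on the minus strand, lay inside a DE-only region of 148 bp (chr14:56810446-56810593), 348 bp from a peak of another list. Its inner start window was open in 8 lists, with no peak in pNE_T or pNE_H. Both regions were about as narrow as the median DE-only region, and neither was a wide peak of its own.

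**Figure D5:**
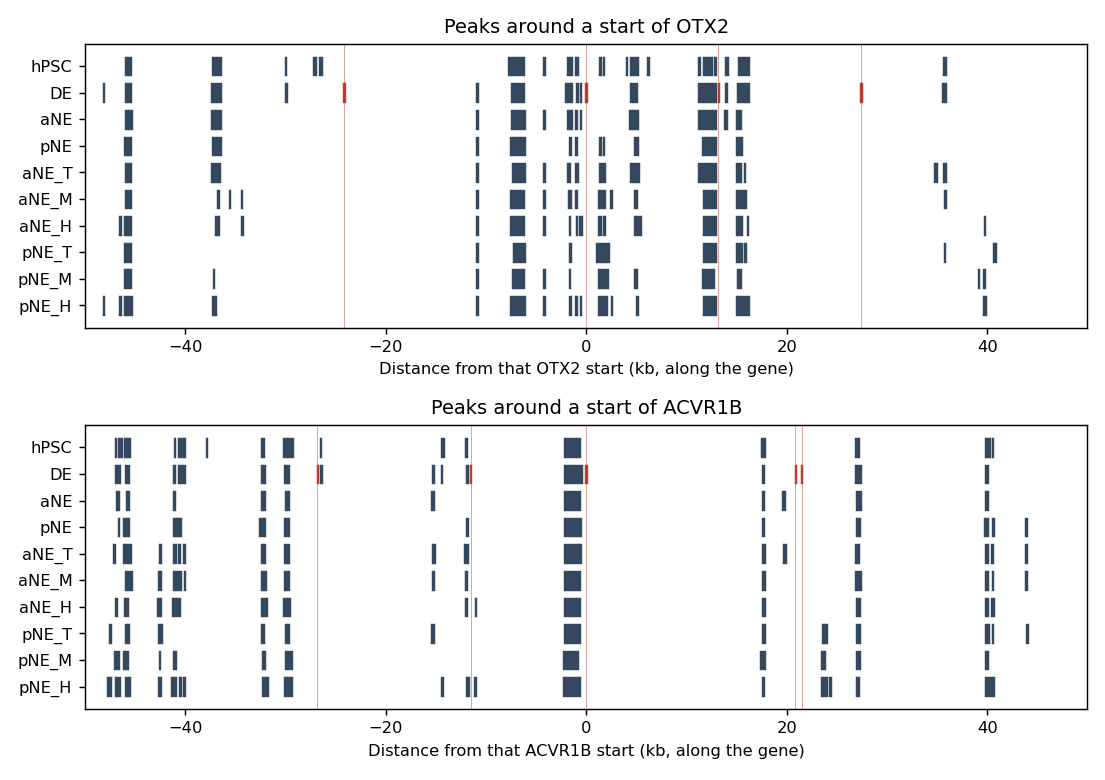
Peaks of the 10 lists from 50 kb before to 50 kb after the outer OTX2 start (top) and the second ACVR1B start (bottom), by distance from that start along the gene in kb; bars are peaks to scale with a thin outline, DE-only peaks are red, and thin red lines carry their positions down the lists. The DE-only peaks, at 0 and at a few other places in each panel, stand between columns of peaks that most or all lists share.

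Short sequence motifs were counted in the 300 base windows on both strands. Whole windows were searched, also where a DE-only region overlapped only part of one, so a match need not lie inside the peak. The USP50 window, for example, had OTX letters and an overlap of 22 bases. For AP-1, the factor pair FOS and JUN, the letters searched were TGACTCA and TGAGTCA, which are the same site read on opposite strands. Those for CRE were TGACGTCA, for ETS factors CCGGAAG, and for TEAD factors ACATTCC. SOX factors were given the letters ACAAAGG plus the spelling ACAATGG, while OCT factors were given ATGCAAAT. The OTX letters were TAATCC, other homeobox factors had TAATTA, and the ZIC letters were CAGCAGG. TFAP2 was searched as GCCNNNGGC, GRHL as the palindrome AACCGGTT, GATA factors as AGATAA, and FOX factors as TGTTTAC. The E-box letters were CAGGTG, those for TCF-LEF were CTTTGAA, and those for SP-KLF were GGGCGG. NF-Y was searched as CCAATC, NRF1 as GCGCATGC, SMAD proteins as the palindrome GTCTAGAC, and nuclear receptors by the shared site AGGTCA. The ZIC and E-box letters can overlap, as can the E-box and nuclear receptor letters. Some windows overlap one another, so a match can be counted more than once, and the intervals below treat windows as separate. Matches are descriptions, and whether they differ by base composition alone was not tested.

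The E-box CAGGTG was in 42.5% of the 127 DE-only start windows (34.3 to 51.2), in 38.2% of hPSC-only windows, 15.0% of pNE_H-only windows and 20.7% of every window. It was thus about as common at hPSC-only starts as at DE-only starts. OTX letters were in 16 DE-only windows, or 12.6% (7.91 to 19.5), beside 3.00% of hPSC-only, 6.98% of pNE_H-only and 6.37% of every window. ZIC letters were in 28 windows, with an interval of 15.7 to 30.0%, beside 14.2%, 12.6% and 10.5% in the same order. AP-1 letters were in 11.8% (7.29 to 18.6), beside 6.44%, 9.30% and 4.91%, and SOX letters in 15.0%, beside 9.44%, 11.3% and 8.30%. The SP-KLF letters GGGCGG were in 18.1%, against 37.3% of hPSC-only windows, 10.6% of pNE_H-only windows, 68.2% of windows open in all lists and 45.0% of every window. The NF-Y letters CCAATC were in 4.72%, against 19.3%, 11.6%, 17.7% and 15.0% in that order. Nuclear receptor letters were in 20.5%, GATA letters in 15.0% and TFAP2 letters in 16.5%. In hPSC-only windows these shares were 15.5%, 8.58% and 17.6%, in pNE_H-only windows 21.3%, 19.9% and 8.64%, and in every window 13.8%, 10.4% and 23.3%. CRE, GRHL and SMAD letters were in 0 of 127, a Wilson upper bound of 2.94%, and were in 1.87%, 0.133% and 0.187% of every window. The remaining 7 families were each in 0.787% to 6.30% of DE-only windows. Of these TEAD letters were in 6.30%, beside 2.15% of hPSC-only, 5.98% of pNE_H-only and 3.45% of every window, with an interval of 3.23 to 11.9.

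Of 1461 microRNA hairpins on chromosomes 1 to 22, 9 were overlapped by a DE-only region. No such count is given here for other classes of regions, so the 9 are a description without a background. The one with a known place in leaving pluripotency is MIRLET7A1. Let-7 microRNAs repress pluripotency and growth genes, and LIN28A and LIN28B block their maturation in pluripotent cells. The region of 185 bp at chr9:94175863-94176047 held the whole hairpin, and the nearest peak of another list was 4520 bp away. The mature arms from RefSeq on GRCh38.p14 are shown with the seed, bases 2 to 8, in capitals, since the seed is what defines the family.
hsa-let-7a-5p: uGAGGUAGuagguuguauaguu
hsa-let-7a-3p: cUAUACAAucuacugucuuuc
A peak over a hairpin does not show that it was transcribed. The other 8 hairpins were MIR8056, MIR6753, MIR631, MIR3174, MIR744, MIR2117, MIR523 and MIR6870, under regions of 112 to 534 bp.

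By nearest gene end, 9720 of 18183 coding genes, or 53.5%, had at least 1 DE-only region. The genes with the largest numbers had 183 to 573 merged regions each. RBFOX1, a neuronal splicing regulator gene, had 44 of 523 merged regions, AUTS2 had 38 of 573, and TAFA5 and PTPRN2 had 32 each, of 341 and 305. ASIC2, an ion channel gene, had 29 of 257 and 5 hPSC-only regions, and CDH13, a cadherin gene, had 27 of 243 and 4 hPSC-only regions. AGAP1 and OMA1 also had 27 each, and PTPRT had 25. Open in hPSC alone, RBFOX1 had 21 regions, AUTS2 18, TAFA5 19, PTPRN2 24, AGAP1 14, OMA1 7 and PTPRT 6. Open in pNE_H alone, the numbers were 70, 62, 25, 19, 20, 13 and 31 in that order, with 23 at ASIC2 and 31 at CDH13. Among the 6264 genes with 20 or more regions the median DE-only share was 4.79%, the 95th percentile was 14.3%, and 778 genes had none. The gene with most regions and no DE-only region was SEMA3D, a semaphorin gene, with 0 of 147, of which 36 were open in DE and 32 in pNE_H alone.

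The highest shares were at genes with few regions. ULK1, the kinase that starts autophagy, had 7 DE-only of 21 regions and 0 hPSC-only. HMBOX1 had 9 of 29 and 0 hPSC-only. RBM6 had 8 of 28, ACER3 8 of 31, and MTF2, a Polycomb accessory protein gene of pluripotent cells, 8 of 32 with 4 hPSC-only. SMIM38 had 6 of 20, TRIT1 6 of 22, and ADIPOQ 6 of 23. POTEE, which has near-identical copies, had 6 of 24. DSTYK, MAP3K14 and ZNF541 followed with 5 of 20 each. These genes are the top of a ranking of 6264, and each value rests on 5 to 9 regions.

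Over 2457 windows of 1 Mb with at least 100 regions, the median DE-only share was 5.09%, with 5th and 95th percentiles of 1.39% and 9.73%. The highest was 22 of 143 regions, or 15.4%, between 31 and 32 Mb of chromosome 15, which holds TRPM1, KLF13 and OTUD7A. Next were 31 of 207 between 46 and 47 Mb of chromosome 10. Between 45 and 46 Mb of chromosome 17, which holds MAP3K14 and MAPT, there were 32 of 216. Between 118 and 119 Mb of chromosome 11, which holds CD3D and KMT2A, there were 32 of 221. Last came 26 of 184 between 179 and 180 Mb of chromosome 5. Open in hPSC alone, these windows had 11, 15, 15, 15 and 8 regions in the order named. Another region of the same class lay within 10 kb of 26.1% of the 26012 DE-only regions, 25.1% of the 21899 hPSC-only regions and 39.2% of the 50360 pNE_H-only regions. These shares depend on the number of regions in each class.

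Lists of pathway and lineage genes were read over each gene and 50 kb on both sides. They had been assembled with earlier results known and are described, not tested. Of 105 matched genes 80 had at least 1 DE-only region, or about the 77.7% of all coding genes that had one. The share of DE-only regions in the windows was 7.14% for NODAL-TGFB (4.76 to 10.6), 6.60% for WNT (4.90 to 8.83), 6.08% for pluripotency, 5.88% for BMP and 5.82% for mesendoderm. It was 4.87% for surface ectoderm, 4.03% for neural ectoderm (2.74 to 5.88), 3.94% for posterior and 3.87% for FGF-ERK response genes (2.49 to 5.96). The interval of every list held the 5.46% of all regions, and the median over coding genes was 5.56%. No list therefore stood apart from the background by this measure.

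The signalling lists are given by role. In the NODAL-TGFB list 7 of 9 genes had a DE-only region. ACVR1B had 6 of 42 regions, SMAD3, which carries the signal to the nucleus, had 5 of 65, and the feedback inhibitors SMAD7 and SKIL had 4 of 42 and 3 of 28. The hPSC-only numbers at these 4 genes were 1, 2, 3 and 3. In the WNT list 10 of 13 genes had one. TCF7L2 and LEF1, factors that carry WNT signals, had 10 of 113 and 6 of 72, and the antagonists NKD1 and SFRP1 5 of 67 and 5 of 57. LEF1 had 0 hPSC-only regions, and TCF7L2 had 10. Of the 6 LEF1 regions, 4 lay inside the gene, and their widths were 112 to 167 bp. In the BMP list ID2, a direct target of BMP signals, had 4 of 29 with 0 hPSC-only. The receptor gene BMPR1A had 4 of 72 with 10 hPSC-only, and the inhibitor SMAD6 3 of 61. In the FGF-ERK list 9 of 15 genes had one, led by SPRED2 with 5 of 72 and ETV5 with 3 of 39. The ERK targets DUSP4, SPRY1, SPRY2, SPRED1, ETV4 and EGR1 had 0.

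Lineage genes gave small numbers on every side. In the pluripotency list POU5F1 had 4 of 18 and 1 hPSC-only, ZFP42 4 of 28 and 2 hPSC-only, DPPA4 3 of 28 and DNMT3B 3 of 36, while NANOG had 1 of 28 with 6 hPSC-only. The 4 regions in the POU5F1 window lay 6622 to 49520 bp from the gene, and 2 of them, 80 bp and 172 bp from a peak of another list, were close to the rule's line. In the neural list LHX5 had 6 of 50, the widest of them 358 bp, and OTX2 had 4 of 36 and 4 hPSC-only. MEIS1 and ZEB2 had 0 of 63 and 0 of 74. In the surface ectoderm list CDH1, the epithelial cadherin gene, had 7 of 51, and 3 of these, 421, 192 and 112 bp wide, lay inside the gene. EPCAM, an epithelial adhesion gene, had 4 of 29, including regions of 361 and 523 bp, and GRHL3 3 of 47. In the mesendoderm list GATA4 had 4 of 52, and EOMES and LHX1 had 3 of 21 and 3 of 30. In the posterior list RARB had 8 of 194, beside 43 in pNE_H alone, EGR2 had 3 of 24, and HOXB4 and GBX2 2 each, while HOXA2 had 0.

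Peaks at marker starts did not check the DE label. Of 71 listed genes with a start window, 66 had a DE peak in one, and 66 had an hPSC peak, 66 an aNE peak and 68 a pNE peak. All 6 mesendoderm genes with a window, EOMES and TBXT included, were open in each of these 4 lists. With 1 list per group, a region that only DE cells opened and a peak that only the DE list reached cannot be told apart.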

How the data were processed

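The members and the gene, motif and window lists were chosen with earlier results of these data known. Per the labels' protocols, 3 OmniATAC-seq libraries were made per group. The deposited values are peak start and end positions, 1 list per group without score or fold, on hg38 per the submitters' processing notes. Those notes name FastQC, Bowtie2, MACS2, bedtools, featureCounts and deepTools among the tools. Their settings, the peak threshold and how replicates were combined are not given in the sources used here, and a different threshold between lists would move every single-list count. Lists were matched to groups by the population name they carry.

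Peaks on chromosomes 1 to 22 were merged at an overlap of 1 bp. Distances were measured to the ends of 56756 genes of RefSeq GRCh38.p14, of which 19126 were protein-coding, and to 33725 start windows. That table holds no chromosome 8 windows, so measures at starts leave chromosome 8 out. Named regions were the 10 widest within and beyond 1 kb of a gene end. Named genes were the 10 with most DE-only regions, the 10 with the largest share among genes with 20 or more regions (13 with ties), and up to 4 members per list. Some genes that this rule names are not reported here. Named windows were the 5 of 1 Mb with the largest share. The ACVR1B and OTX2 starts, the other genes named at starts, MIRLET7A1 and the listed genes with 0 were picked after their values were seen. Of 106 listed genes 105 were matched, CRIPTO through TDGF1. PORCN is not on chromosomes 1 to 22. Motifs were searched at starts, since no genome sequence was used here. Wilson intervals are at 95% and cover only the counting of regions, or of start windows for motifs. No test was made. The merging code was checked on simulated lists. Python 3.11.15 with numpy 2.4.6, pandas 2.3.3, statsmodels 0.14.6 and matplotlib 3.10.9 was used.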

Additional observations from a re-analysis of the deposited data

Results flagged for a closer look

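Sequences outside chromosomes 1 to 22 were not part of the count, and each held regions open in DE alone. Chromosome X had 913 of 16790 merged regions, or 5.44%, beside 5.20% open in hPSC alone. Chromosome Y had 31 of 484, or 6.40% (95% Wilson interval 4.55 to 8.95), beside 10.7% in hPSC alone. The 565 scaffolds and other sequences had 2456 of 23893, or 10.3%, beside 7.72% in hPSC alone. No control list exists for these counts, and their cause was not tested.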

How the results depend on the processing

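The number of DE-only regions lay between 21480 and 30538, within a factor of 1.5 of 26012, when peaks had to cover 50% of a region, when peaks up to 200 bp apart were merged, with windows of 500 bp at peak midpoints, without peaks under 126 bp, and with each list but hPSC not counted in turn. It was 12341 with all lists at one length, 13183 with the widest 50% of every list, 3531 with the widest 50% of DE alone, and 39150 with hPSC not counted. The share within 1 kb of a gene end, 7.89%, was 10.41% with 500 bp windows, 8.338% with all lists at one length, 8.822% with the widest 50% of every list and 8.498% with hPSC not counted. Otherwise it was between 7.627% and 8.137%. The median width, 157 bp, was 248 bp with all lists at one length and 187 bp with hPSC not counted. It was 163, 161, 160 and 162 bp with aNE, aNE_T, pNE_T and pNE_H not counted in turn. Fewer peaks and wider windows enter these values by construction. No paired analysis was possible because each group has 1 list and no value per replicate. Leaving out a replicate was not possible for the same reason. Read depth is unknown and no peak has a score, so a region missing from a list is a peak not called there, not a site shown to be closed.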
